A study of Mus musculus with 24 samples.

Results

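Lungs of mice challenged with bacterial lipopolysaccharide (LPS) were compared with lungs of saline controls by RNA sequencing of whole tissue. The comparison takes in 9 of the 24 libraries of the series, 5 labelled LPS and 4 labelled Control, and these labels assigned its members to the groups. Mice of the LPS group were wild type C57BL/6 animals of 7 weeks without extract treatment, which received LPS at 5 mg/kg into the trachea on day 29 and gave their lungs 8 h later. Mice of the Control group shared strain, age and the lack of extract, and by the protocol received saline instead of LPS, although their sample characteristics carry the same LPS entry as the challenged mice. The protocol was followed here. The other 3 groups, of 5 libraries each, drank an extract named AEAA in 1 of 3 strengths, at most 1.5 mg/mL, for 28 days before the same challenge, and they entered the filter on low values, the scaling and the estimate of the spread between mice, but no comparison. The labels give all mice as male, but Xist lay between 25.8 and 95.5 TPM in all 24 libraries and none of 4 Y-linked genes exceeded 0.15 TPM. Mice were kept with 12 h of light a day, and the hour at which lungs were collected is not stated.

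LPS is a component of the outer membrane of Gram-negative bacteria. In the lung it is bound by the carrier protein LBP and by CD14, which hand it to the receptor TLR4, and the adaptors MyD88 and TRIF carry the signal on to the transcription factor NF-kB and to interferon regulatory factors. Macrophages and epithelial cells answer with chemokines and cytokines that draw neutrophils from the blood, and with feedback inhibitors that limit the signal. The surface on which this happens is made of secretory club cells and ciliated cells in the airways, and of flat type I and surfactant-producing type II cells in the alveoli. Lung cells also run a circadian clock, in which BMAL1 and CLOCK drive their own repressors and a set of output genes, and a defence against oxidants and electrophiles that is driven by the transcription factor NRF2.

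Expression is given as scaled TPM, the authors' TPM (transcript abundance normalized for gene length and library total) divided by a median-of-ratios factor for each library. TPM values of a library sum to a fixed total, and Scgb1a1, the main secretory protein of club cells, held 3.13% to 6.46% of all TPM in LPS libraries and 23.2% to 35.5% in Control libraries. The factors were 1.09 to 1.28 in LPS libraries and 0.648 to 0.804 in Control libraries, without overlap. Between 16103 and 16954 genes reached 1 TPM in LPS libraries, and between 14996 and 15636 did so in Control libraries. No read counts were at hand, which leaves sequencing depth unknown and counting error out of reach. Fold changes are differences of log2(scaled TPM + 1), which understates the change of genes at low levels. The p-values measure only the spread between libraries within groups, pooled over all 24 libraries of the series. The labels number the libraries of a group as biological replicates. Genes are named by a rule on the size of their change, and further members of each list are named for their role, chosen after their values were seen. The lists were drawn up with earlier results of these data known, so their counts describe the members and test nothing. In whole tissue, fewer cells of a type and less RNA per cell cannot be told apart.

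Of 17823 genes tested, 4978 (27.9%) passed an adjusted p of 0.05, of which 2455 (13.8%) were higher and 2523 (14.2%) lower in LPS lungs. A log2 fold change of at least 1 in size was reached by 955 of them, and over all genes the median log2 fold change stood at 0.0038. Every LPS library lay above every Control library for 2539 genes (14.2%), and below every Control library for 2410 genes (13.5%). Among the passing genes 1883 of those that rose and 1953 of those that fell showed no overlap between the groups. Without scaling the same fit called 58% of genes, 10013 (56.2%) higher and 331 (1.86%) lower, and the median of all genes was shifted by 0.55. With libraries rescaled to equal totals of all genes but Scgb1a1, Scgb3a1 and Scgb3a2 it called 5366 higher and 1064 lower, with a median of 0.21. A direction below therefore means a change relative to the typical gene of the same lung. Counts of called members in the lists below stand against 13.8% higher and 14.2% lower of all genes. Counts of members without overlap stand against 14.2% above and 13.5% below.

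**Figure D1:**
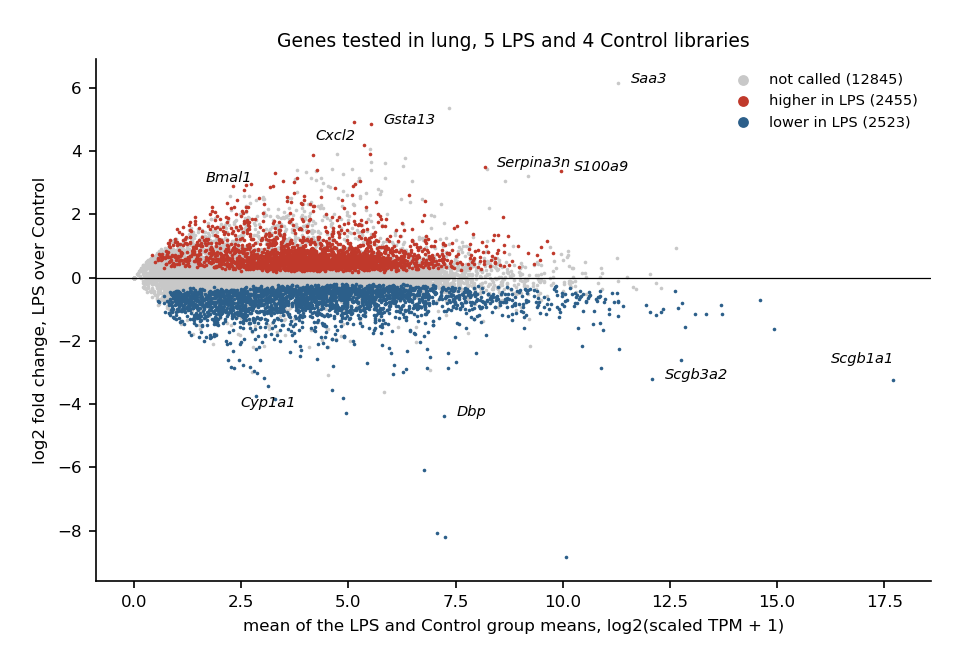
Log2 fold change of LPS over Control (vertical axis) against the mean of the LPS and Control group means on the log2(scaled TPM + 1) scale (horizontal axis) for the 17823 genes tested, with 2455 higher genes in red, 2523 lower genes in blue and the rest in grey. The 3 lowest points are the processed pseudogenes Gm14303, Gm12918 and Gm9843, whose reads can come from near-identical copies, and Scgb1a1 lies farthest to the right.

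The 5 LPS libraries were not alike. LPS libraries 2 and 4 held lower levels of most chemokines, cytokines and acute phase genes than LPS libraries 1, 3 and 5. LPS libraries 1 and 3 carried skeletal muscle transcripts. The muscle actin Acta1 stood at 1830.1, 0.0471, 1151, 0.261 and 0.588 scaled TPM in LPS libraries 1 to 5, against 0.1697, 0.199, 3.53 and 1.41 in Control libraries 1 to 4. LPS library 3 also carried transcripts of fat, with the adipokine Adipoq at 57.4 scaled TPM against 2.34 to 5.98 in the other LPS libraries and 7.51 to 26.6 in Control libraries, and it had the highest levels of neutrophil and cell cycle genes. The part that muscle or fat in the sample had in any other result was not tested. The called genes are given by library to set the LPS libraries side by side. They were called on these same libraries, so the call itself in part fixes how many lie outside the Control range. Of the 2455 genes that rose, 96.4% exceeded all Control libraries in LPS library 1, 85.3% in library 2, 97.3% in library 3, 95.8% in library 4 and 98.3% in library 5. Of the 2523 genes that fell, the shares below all Control libraries were 95.4%, 87.1%, 97.4%, 95.3% and 97.7% in LPS libraries 1 to 5. Of all 17823 genes tested, called or not, 32.4% in library 2 to 38.6% in library 3 lay above all Control libraries, and 29.7% in library 2 to 37.7% in library 3 lay below them.

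**Figure D2:**
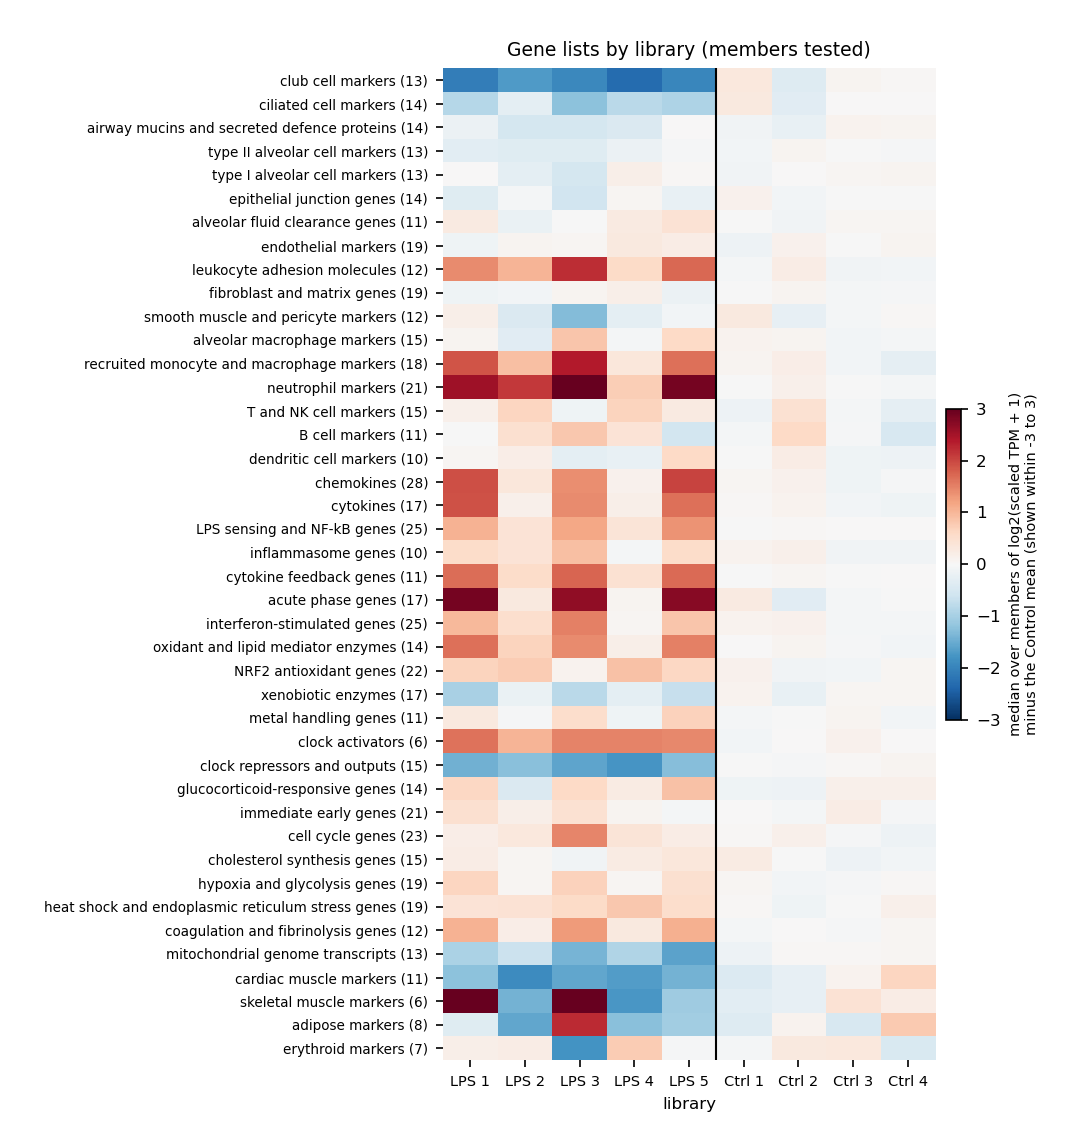
Gene lists (rows, with the number of members tested) in the 5 LPS and 4 Control libraries (columns). Colour gives the median over members of log2(scaled TPM + 1) minus the Control mean of the member, red above and blue below it, shown within −3 to 3, with acute phase genes at 2.87, 0.29, 2.66, 0.09 and 2.74 and clock repressors and outputs at −1.45, −1.26, −1.57, −1.77 and −1.28 in LPS libraries 1 to 5.

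The 12 largest increases by the naming rule were led by the glutathione transferases Gsta13 and Gsta1, which are near-identical copies. They were followed by genes of neutrophils (Ngp, S100a9, Cxcr2 and Csf3r) and of the acute phase (Serpina3n and Serpina3m). The others were Il36g, Uchl1, Sprr1a and Slc7a11. Gsta13 had 56.3, 142, 11.2, 177 and 59.9 scaled TPM in LPS libraries 1 to 5, against 1.88, 0.4103, 1.33 and 1.44 in Control libraries 1 to 4 (log2 fold change 4.87 ± 0.68 (SE), adjusted p = 6.9e-05). How reads were shared between the copies is unknown. Uchl1, a deubiquitinating enzyme best known from neurons and neuroendocrine cells, had 63.2, 76.4, 36.0, 90.5 and 77.0 scaled TPM in LPS libraries 1 to 5, against 7.39, 6.89, 6.12 and 8.16 in Control libraries 1 to 4 (log2 fold change 3.04 ± 0.27 (SE), adjusted p = 1.8e-06). Both were lowest among LPS libraries in library 3. Sprr1a, a small proline-rich protein of the cornified envelope of squamous epithelium, had 5.78, 27.3, 17.4, 38.2 and 6.91 scaled TPM in LPS libraries 1 to 5, against 1.48, 1.63, 0.382 and 0.649 in Control libraries 1 to 4 (log2 fold change 3.04, adjusted p = 0.0058). Il36g, a cytokine of the interleukin-1 family made by epithelial cells, had 29.6, 9.86, 44.6, 7.25 and 31.6 scaled TPM in LPS libraries 1 to 5, against 1.40, 0.933, 1.51 and 1.58 in Control libraries 1 to 4 (log2 fold change 3.16, adjusted p = 0.016). The naming rule admitted only genes without overlap between the groups, for increases and decreases alike, so their separation was fixed by the choice. The order among the LPS libraries differed between genes, since Gsta13, Uchl1 and Sprr1a were highest in library 4 and Il36g was lowest there.

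The 12 largest decreases were Dbp, Cyp1a1, the secretoglobins Scgb1a1, Scgb3a2, Scgb3a1 and Scgb1c1, Commd1b, Pon1, Vpreb3, Lypd2, Cyp2a5 and Hamp. Vpreb3, a gene known from B cell precursors, had 16.4, 17.9, 20.7, 18.7 and 18.1 scaled TPM in LPS libraries 1 to 5, against 178, 104, 146 and 146 in Control libraries 1 to 4 (log2 fold change −2.88 ± 0.32 (SE), adjusted p = 9.0e-06). Lypd2 had 45.2, 45.7, 28.3, 31.0 and 38.6 scaled TPM in LPS libraries 1 to 5, against 338, 195, 312 and 287 in Control libraries 1 to 4 (log2 fold change −2.87, adjusted p = 9.0e-06). Both Vpreb3 and Lypd2 held LPS values within a narrow band. Of the 11 listed B cell markers, which do not include Vpreb3, 1 rose and 0 fell. Hamp, which encodes the iron hormone hepcidin, had 6.61, 12.8, 9.28, 9.89 and 13.4 scaled TPM in LPS libraries 1 to 5, against 63.6, 49.2, 69.1 and 115 in Control libraries 1 to 4 (log2 fold change −2.69, adjusted p = 0.0025). All 5 LPS values of Hamp lay far below the lowest Control library. Commd1b was listed at 0 in LPS libraries 1, 3, 4 and 5 and at 6.63 scaled TPM in LPS library 2, against 16.5, 12.8, 9.32 and 13.1 in Control libraries, so no fold change is given for it.

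**Figure D3:**
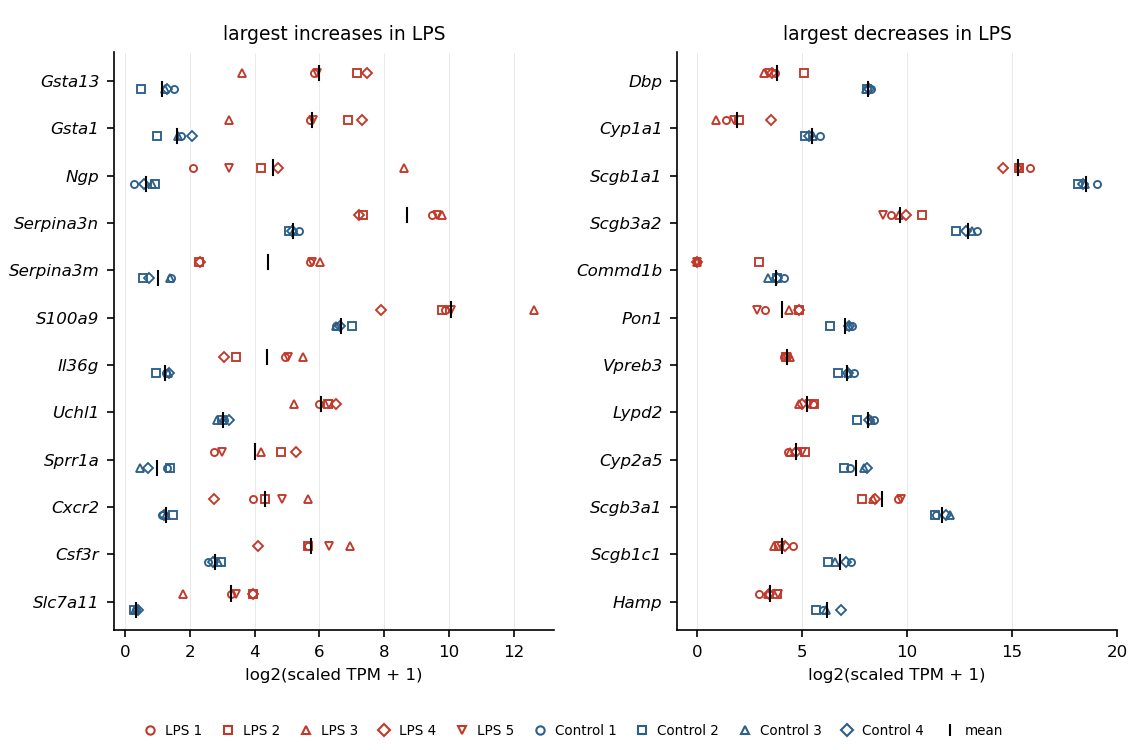
The 12 largest increases (left) and the 12 largest decreases (right) by the naming rule, as log2(scaled TPM + 1) in each library, with LPS in red above Control in blue for every gene and a black bar at the mean of a group (left out for the LPS group of Commd1b). The symbols mark the library, and the groups do not overlap for any gene shown, which the rule required.

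Genes of LPS sensing and of the NF-kB pathway rose. Of 25 tested, 13 were higher and 0 lower, against 13.8% and 14.2% of all genes, with a median log2 fold change of 0.78, and 17 had all LPS libraries above all Control libraries. The receptor Tlr4 rose to 10.6, 9.27, 11.8, 6.99 and 9.76 scaled TPM in LPS libraries 1 to 5, against 4.95, 4.91, 5.53 and 5.17 in Control libraries 1 to 4 (log2 fold change 0.78, adjusted p = 0.020). The adaptors rose as well. Tirap, which bridges the receptor to MyD88, had 11.1, 7.12, 13.5, 10.5 and 15.0 scaled TPM in LPS libraries 1 to 5, against 4.54, 4.46, 4.46 and 4.05 in Control libraries 1 to 4 (log2 fold change 1.18 ± 0.20 (SE), adjusted p = 4.0e-04). The adaptor Myd88 itself also rose (log2 fold change 1.13, adjusted p = 0.021). The kinase Irak1, which acts next in the chain, had 35.4 to 50.9 scaled TPM in LPS libraries and 23.6 to 26.9 in Control libraries (log2 fold change 0.70, adjusted p = 2.3e-04). Ly96, the MD-2 partner of TLR4, did not pass (7.36 to 17.2 in LPS libraries and 9.44 to 11.1 in Control libraries). Cd14, the co-receptor, stood at 393, 64.8, 159, 58.6 and 382 scaled TPM in LPS libraries 1 to 5, against 47.4, 34.5, 40.6 and 38.0 in Control libraries 1 to 4. No LPS library fell to the Control range, but it did not pass (adjusted p = 0.091).

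Among the transcription factors and their partners, Rela, the main activating subunit of NF-kB, had 88.1, 79.3, 107, 105 and 121 scaled TPM in LPS libraries 1 to 5, against 44.9, 56.8, 58.3 and 62.4 in Control libraries 1 to 4 (log2 fold change 0.83 ± 0.16 (SE), adjusted p = 0.0011). Nfkb2, the precursor of the p52 subunit, had 65.9, 21.5, 65.4, 25.7 and 67.2 scaled TPM in LPS libraries 1 to 5, against 11.6, 13.1, 11.9 and 13.5 in Control libraries 1 to 4 (log2 fold change 1.73, adjusted p = 0.012). Bcl3, a nuclear partner of p50 and p52, had 43.9, 21.6, 66.8, 26.4 and 47.7 scaled TPM in LPS libraries 1 to 5, against 9.51, 9.69, 9.73 and 11.1 in Control libraries 1 to 4 (log2 fold change 1.83, adjusted p = 0.0041). Relb, which pairs with p52, rose as well (log2 fold change 1.46, adjusted p = 0.020). LPS libraries 2 and 4 were the lowest LPS libraries for Nfkb2, Bcl3 and Relb, but not for Rela. Of the inhibitors that NF-kB induces, Tnip1 (log2 fold change 1.77, adjusted p = 0.045) and Nfkbie (log2 fold change 1.74, adjusted p = 0.041) rose. The inhibitors Nfkbia and Tnfaip3 did not pass. Tnfaip3 had 61.5, 9.58, 48.3, 9.36 and 66.1 scaled TPM in LPS libraries 1 to 5, against 7.81, 9.29, 7.73 and 6.88 in Control libraries 1 to 4. The count of 13 was 8 without Control replicate 1 or LPS replicate 5, 6 without LPS replicate 3, 20 without LPS replicates 2 and 4 and 4 without LPS replicates 1 and 3. Tlr4 lost its call without LPS replicate 3, Myd88 and Relb without each of 3 libraries, and Nfkbie and Tnip1 without each of 7, in every case including LPS replicate 3.

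Chemokines differed widely between the LPS libraries, and no member passed the test. Of 28 tested, 0 passed in either direction by limma, although the median log2 fold change was 1.52 and 6 had an unadjusted p under 0.05. In 7 all LPS libraries lay above all Control libraries. Cxcl2, a neutrophil attractant that binds CXCR2, had 241, 1.08, 40.1, 0.0712 and 162 scaled TPM in LPS libraries 1 to 5, against 0.216, 0.236, 0.356 and 0.0779 in Control libraries 1 to 4 (adjusted p = 0.17). Its levels in LPS libraries 1, 3 and 5 lay far above Control, while that of LPS library 4 was below the lowest Control library. Cxcl1, another ligand of CXCR2, had 89.9, 2.52, 42.8, 1.76 and 83.7 scaled TPM in LPS libraries 1 to 5, against 1.88, 1.90, 1.49 and 1.87 in Control libraries 1 to 4 (adjusted p = 0.20). Cxcl5, an epithelial ligand of the same receptor, had 99.2, 2.10, 3.36, 2.89 and 71.8 scaled TPM in LPS libraries 1 to 5, against 0.201, 0.187, 0.408 and 0.260 in Control libraries 1 to 4 (adjusted p = 0.10). Here LPS library 3 sat with libraries 2 and 4 rather than with 1 and 5. Ccl20, which attracts cells with CCR6, was high in the same pair of libraries, at 166, 5.96, 3.25, 3.52 and 147 scaled TPM in LPS libraries 1 to 5 against 1.02, 1.21, 0.277 and 1.14 in Control libraries 1 to 4. The monocyte attractant Ccl2 had 101, 3.83, 99.5, 2.56 and 69.7 scaled TPM in LPS libraries 1 to 5, against 1.59, 2.41, 1.21 and 1.67 in Control libraries 1 to 4 (adjusted p = 0.12). For Ccl2 LPS library 3 sat with libraries 1 and 5 again. The B cell attractant Cxcl13 was highest in LPS library 3, at 325 scaled TPM, against 2.76 to 5.74 in Control libraries. The constitutive chemokines Cxcl15, at 564 to 968 in LPS libraries and 659.9 to 839.9 in Control libraries, and Cxcl12, at 98.4 to 133 and 92.5 to 134, overlapped between the groups. With sample quality weights, which give less weight to libraries far from their group, 13 chemokines passed as higher, and without LPS replicates 2 and 4 7 rose and 1 fell. Without LPS replicate 2 alone 1 rose, and without LPS replicate 4 alone 2 rose and 1 fell.

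The promoters of Cxcl2 and Nfkb2 are shown because both genes carry repeated matches to the NF-kB site, one an inducible chemokine that separated the LPS libraries, the other a called gene of the pathway. Capitals mark matches to the NF-kB motif, GGG, any 2 bases, TT, any base and CC, on either strand in the 250 bases before the transcription start, read from RefSeq on GRCm38.p6, at chr5:90903649-90903898 on the plus strand and chr19:46304487-46304736 on the plus strand. The window of Cxcl2 holds 2 matches and that of Nfkb2 holds 3, of which 2 overlap.
Cxcl2: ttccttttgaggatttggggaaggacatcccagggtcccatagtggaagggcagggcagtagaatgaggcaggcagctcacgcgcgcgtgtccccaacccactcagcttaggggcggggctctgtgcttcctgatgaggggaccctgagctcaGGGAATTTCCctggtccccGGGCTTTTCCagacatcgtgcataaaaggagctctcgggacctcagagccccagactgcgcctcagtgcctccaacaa
Nfkb2: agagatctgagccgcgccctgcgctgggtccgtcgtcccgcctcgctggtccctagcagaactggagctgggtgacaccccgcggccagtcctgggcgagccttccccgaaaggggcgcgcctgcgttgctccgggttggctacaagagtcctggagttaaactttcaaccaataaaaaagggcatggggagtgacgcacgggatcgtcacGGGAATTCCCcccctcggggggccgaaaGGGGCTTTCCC
The motif was present in 4.58% of the windows of all 11826 tested genes that have one, in 36.8% (7 of 19) of the chemokine windows and in 29.4% (5 of 17) of the windows of the sensing and NF-kB list. It was present in 4.76% of the windows of all genes that rose and in 3.62% of those that fell. A match is a string of letters and not a measured binding site.

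**Figure D4:**
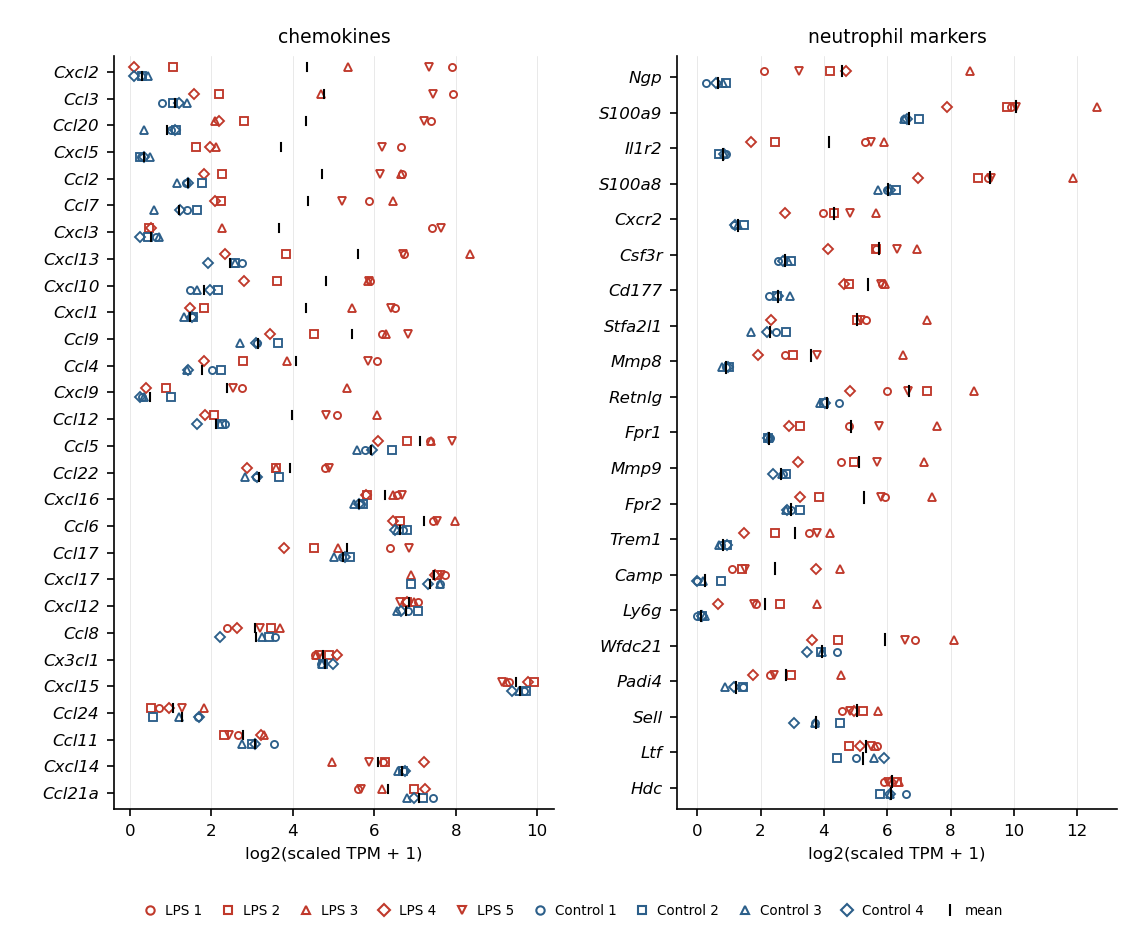
Chemokines (left) and neutrophil markers (right) that were tested, as log2(scaled TPM + 1) in each library, ordered by log2 fold change, with LPS in red above Control in blue and black bars at group means. Cxcl2 spreads over 0.0712 to 241 scaled TPM in LPS libraries, and LPS library 3 (red triangles) is the highest for S100a9 at 6344.

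Cytokines were also spread between LPS libraries. Of 17 tested 1 rose and 1 fell, with a median of 1.23. Il1b, the fever-inducing product of the inflammasome, had 185, 39.2, 274, 14.1 and 217 scaled TPM in LPS libraries 1 to 5, against 7.72, 8.39, 6.97 and 5.31 in Control libraries 1 to 4 (adjusted p = 0.080). Its natural antagonist Il1rn had 149, 5.23, 94.3, 9.30 and 176 scaled TPM in LPS libraries 1 to 5, against 2.89, 3.42, 2.57 and 4.05 in Control libraries 1 to 4 (adjusted p = 0.12). Tnf, the early cytokine of macrophages, had 20.8, 1.29, 15.7, 0.997 and 30.1 scaled TPM in LPS libraries 1 to 5, against 0.7098, 0.945, 0.290 and 0.389 in Control libraries 1 to 4 (adjusted p = 0.18). In all 3 genes every LPS library lay above every Control library, and LPS libraries 2 and 4 were the closest to Control. Il6 overlapped between the groups, at 7.595, 0.290, 5.67, 1.20 and 3.52 in LPS libraries 1 to 5 and 0.355, 0.672, 0.224 and 0.104 in Control libraries 1 to 4. The gene of this list that rose was Lif, a cytokine of the interleukin-6 family (log2 fold change 1.11, adjusted p = 0.018). It lost this call without Control replicate 4. The cytokine Il36g, given among the largest increases, was not on this list. Without LPS replicate 4, 2 cytokines rose. The gene that fell was Tslp, an epithelial cytokine of type 2 immunity, with 2.15, 4.33, 1.69, 3.13 and 1.84 scaled TPM in LPS libraries 1 to 5, against 7.14, 6.96, 5.93 and 5.62 in Control libraries 1 to 4 (log2 fold change −1.08 ± 0.24 (SE), adjusted p = 0.0031). Tslp was low in all 5 LPS libraries, those with low chemokines included. Ifnb1 was listed at 0 in all 9 libraries.

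Of 11 feedback genes 2 rose, Il4ra and Socs3, against 13.8% of all genes. All 11 had a positive fold change, with a median of 1.24, and 6 had an unadjusted p under 0.05 in limma. In 7 every LPS library lay above every Control library. Il4ra is a receptor chain for interleukins 4 and 13 (log2 fold change 1.31, adjusted p = 0.015). Socs3, an inhibitor of cytokine receptor signalling, had 130.0, 32.0, 107, 38.6 and 116 scaled TPM in LPS libraries 1 to 5, against 17.1, 16.2, 17.2 and 18.7 in Control libraries 1 to 4 (log2 fold change 2.01, adjusted p = 0.039). Of 10 inflammasome genes none passed in limma, and 2 had an unadjusted p under 0.05. The sensor Nlrp3 had 17.8, 2.48, 6.90, 1.39 and 19.0 scaled TPM in LPS libraries 1 to 5, against 0.849, 1.18, 0.580 and 0.584 in Control libraries 1 to 4 (adjusted p = 0.13), without overlap between the groups. Of 25 interferon-stimulated genes 1 passed, Oasl1 (log2 fold change 1.49, adjusted p = 0.048), and 8 had an unadjusted p under 0.05, with a median of 0.77. The regulator Irf7 had 130.0, 49.6, 318, 16.5 and 151 scaled TPM in LPS libraries 1 to 5, against 15.1, 15.2, 13.4 and 16.4 in Control libraries 1 to 4 (adjusted p = 0.058), with LPS library 4 barely above Control and library 3 highest. For feedback genes the count was 1 without 6 of the libraries in turn and 4 without LPS replicate 2, and for the inflammasome it was 1 without LPS replicate 2 or 4. The interferon count was 0 without each of 7 libraries, 2 without LPS replicate 2, 7 without LPS replicate 4, 8 without LPS replicates 2 and 4, and 9 with sample quality weights.

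Neutrophil markers rose in LPS lungs. Of 21 tested (the granule enzymes Mpo and Elane were too low), 12 rose and 0 fell, the median log2 fold change was 2.60, and 17 showed every LPS library above every Control library. The alarmin subunit S100a9 had 951, 884, 6344, 237 and 1061 scaled TPM in LPS libraries 1 to 5, against 90.5, 129, 90.8 and 98.6 in Control libraries 1 to 4 (log2 fold change 3.38, adjusted p = 0.037). Its partner S100a8 had 581, 467, 3748, 124 and 617 scaled TPM in LPS libraries 1 to 5, against 63.3, 77.1, 51.0 and 66.8 in Control libraries 1 to 4 and did not pass (adjusted p = 0.054). LPS library 3 held several times the level of any other for both subunits, and the call of S100a9 was lost without each of 7 libraries. The chemokine receptor Cxcr2 had 14.6, 19.1, 49.3, 5.77 and 27.5 scaled TPM in LPS libraries 1 to 5, against 1.22, 1.77, 1.42 and 1.31 in Control libraries 1 to 4 (log2 fold change 3.03 ± 0.83 (SE), adjusted p = 0.011). Csf3r, the receptor for the growth factor G-CSF, had 49.0, 49.4, 122, 16.3 and 78.4 scaled TPM in LPS libraries 1 to 5, against 4.86, 6.79, 6.37 and 5.54 in Control libraries 1 to 4 (log2 fold change 2.96 ± 0.76 (SE), adjusted p = 0.0072). Cd177, a surface glycoprotein of neutrophils, had 56.4, 26.7, 60.0, 23.6 and 55.2 scaled TPM in LPS libraries 1 to 5, against 3.86, 4.71, 6.59 and 4.81 in Control libraries 1 to 4 (log2 fold change 2.84 ± 0.51 (SE), adjusted p = 5.2e-04). Cd177 had the narrowest spread of these genes among the LPS libraries. In LPS library 2, 19 of 21 neutrophil markers and 14 of 28 chemokines exceeded all Control libraries, against 32.4% of all genes tested. LPS library 4 was the lowest LPS library for Cxcr2, Csf3r and Cd177. The granule genes Ngp and Camp, which immature neutrophils transcribe, kept another order. Ngp had 3.33, 17.4, 388, 25.2 and 8.31 scaled TPM in LPS libraries 1 to 5, against 0.216, 0.895, 0.764 and 0.493 in Control libraries 1 to 4 (log2 fold change 3.92, adjusted p = 0.019), with library 3 far above the rest and library 4 next to it. Ly6g, the antigen used to sort mouse neutrophils, had 0.570 to 12.9 scaled TPM in LPS libraries, against 0 to 0.198 in Control libraries (log2 fold change 2.01, adjusted p = 0.030). The count of 12 was 6 without Control replicate 1, 3 or 4, 5 without LPS replicate 3, 17 without LPS replicates 2 and 4 and 1 without LPS replicates 1 and 3.

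The molecules by which leukocytes attach to vessels rose in 7 of 12 cases, with a median of 1.41. Neutrophils carry several of these molecules, and the summed level of the neutrophil markers was 2176, 1893, 12465, 654 and 2447 scaled TPM in LPS libraries 1 to 5, against 369, 374, 331 and 357 in Control libraries 1 to 4. Their part in the adhesion result was not tested. Itgal, the alpha chain of the integrin LFA-1, had 29.1, 32.8, 71.1, 17.8 and 34.3 scaled TPM in LPS libraries 1 to 5, against 10.1, 12.7, 9.48 and 10.1 in Control libraries 1 to 4 (log2 fold change 1.58, adjusted p = 0.0097). Itgam, the alpha chain of Mac-1, had 63.5, 21.5, 146, 7.48 and 70.9 scaled TPM in LPS libraries 1 to 5, against 4.48, 6.44, 3.86 and 4.00 in Control libraries 1 to 4 (log2 fold change 2.90, adjusted p = 0.046), with library 4 the lowest LPS library. Icam1, the endothelial and epithelial ligand of both integrins, had 682, 210.1, 549, 267 and 654 scaled TPM in LPS libraries 1 to 5, against 168, 187, 186 and 198 in Control libraries 1 to 4 (log2 fold change 1.20, adjusted p = 0.048). In Icam1 LPS library 2 lay just above Control. The endothelial selectin Sele had 8.25, 1.17, 23.5, 1.38 and 8.46 scaled TPM in LPS libraries 1 to 5, against 0.401, 0.709, 0.514 and 0.869 in Control libraries 1 to 4 and did not pass (adjusted p = 0.13). The calls of Itgam and Icam1 were lost without each of 7 libraries. The count was 3 without library 1 or 3 of the Control group or library 3 or 5 of the LPS group. It was 2 without Control replicate 4 and 0 without LPS replicates 1 and 3.

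Of 18 markers of recruited monocytes and macrophages 3 rose, a share near the 13.8% of all genes, with a median of 1.38. They were Cd68, a lysosomal glycoprotein of macrophages (log2 fold change 1.93, adjusted p = 0.0086), the matrix proteoglycan Vcan (log2 fold change 1.61, adjusted p = 0.0081) and the Fc receptor Fcgr4 (log2 fold change 2.27, adjusted p = 0.031). Cd68 had 75.3, 38.9, 132, 40.8 and 145 scaled TPM in LPS libraries 1 to 5, against 23.9, 20.3, 15.9 and 16.4 in Control libraries 1 to 4. The monocyte chemokine receptor Ccr2 overlapped, at 5.66 to 17.8 scaled TPM in LPS libraries and 9.08 to 17.8 in Control libraries. The number of these markers that rose was 6 without LPS replicate 4, 9 without LPS replicates 2 and 4 and 1 without LPS replicates 1 and 3. It was 15 with sample quality weights, 10 in a fit to the 9 libraries alone, 10 after rescaling without the club cell secretoglobins and 16 in the TPM as deposited. Of 15 markers of resident alveolar macrophages none passed in limma, while 2 had an unadjusted p under 0.05 and the median was 0.09. The lectin Siglecf stood at 0.736 to 8.36 in LPS libraries and 1.86 to 3.07 in Control libraries. The scavenger receptor Marco had 56.7, 7.13, 106, 9.61 and 87.0 scaled TPM in LPS libraries 1 to 5, against 7.61, 9.29, 7.599 and 10.8 in Control libraries 1 to 4 (adjusted p = 0.11), raised in the 3 libraries with high chemokines. Of the alveolar macrophage markers, 3 rose without LPS replicate 2 and 5 without LPS replicates 2 and 4. The number that rose was 4 with sample quality weights, 3 after rescaling without the secretoglobins and 11 in the TPM as deposited.

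Lymphocyte markers gave few calls. Of 15 T and NK cell markers 2 rose and 1 fell, against 13.8% and 14.2% of all genes. The pore-forming Prf1 (log2 fold change 1.43, adjusted p = 0.0052) and the NK receptor Ncr1 (log2 fold change 0.96, adjusted p = 0.015) rose. The T cell receptor component Cd3d fell (log2 fold change −0.70, adjusted p = 0.027). Cd3d lost its call without each of 6 libraries and Ncr1 without Control replicate 1. Cd3e, another component of the receptor, had 3.97 to 9.70 scaled TPM in LPS libraries and 3.47 to 6.27 in Control libraries and did not pass. Of 11 B cell markers 1 rose, Cd22 (log2 fold change 1.03, adjusted p = 0.025). Of 10 dendritic cell markers 3 rose, against 13.8% of all genes. The called members included Ccr7, the receptor that guides dendritic cells to lymph nodes (log2 fold change 1.01, adjusted p = 0.0088), and Fscn1, an actin bundler of mature dendritic cells (log2 fold change 1.92, adjusted p = 0.023). Cd22 lost its call without each of 3 libraries and Fscn1 without each of 5, and 3 dendritic cell markers fell without LPS replicate 2 and 1 without LPS replicate 4.

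Acute phase genes, secreted proteins that the liver and also the lung make in inflammation, were set apart by library. Of 17 tested 4 rose, with a median of 1.91. Saa3, a serum amyloid A made locally in lung, had 10306, 89.3, 7614, 9.08 and 6941 scaled TPM in LPS libraries 1 to 5, against 14.5, 13.1, 15.1 and 5.40 in Control libraries 1 to 4 (adjusted p = 0.11). It exceeded Control by far in LPS libraries 1, 3 and 5, and LPS library 4 lay within the Control range. Lcn2, which binds the iron carriers of bacteria and stood in the list of secreted defence proteins, had 9726, 197, 5884, 246 and 10436 scaled TPM in LPS libraries 1 to 5, against 171, 175, 159 and 124 in Control libraries 1 to 4 (adjusted p = 0.10). For Lcn2 libraries 2 and 4 lay just above Control. Serpina3n, a protease inhibitor, was raised in libraries 2 and 4 too, with 709.7, 162, 884, 148 and 799.5 scaled TPM in LPS libraries 1 to 5, against 40.0, 32.6, 36.1 and 34.4 in Control libraries 1 to 4 (log2 fold change 3.50 ± 0.75 (SE), adjusted p = 0.0021). The complement component C3 had 714, 323, 1135, 236 and 776 scaled TPM in LPS libraries 1 to 5, against 115, 182, 137 and 150.1 in Control libraries 1 to 4 (log2 fold change 1.91, adjusted p = 0.013). Serpina3m (log2 fold change 3.39, adjusted p = 0.028) and the heme carrier Hpx (log2 fold change 1.39, adjusted p = 0.042) were the other members that rose, and both lost the call without each of 6 libraries. The number of calls was 2 without Control replicate 2 or 4 or LPS replicate 1, 3 or 5, 7 without LPS replicate 2, 8 without LPS replicate 4, and 12 without LPS replicates 2 and 4.

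Most club cell markers changed in the other direction. Of 13 club cell markers 11 fell and 0 rose, against 14.2% and 13.8% of all genes, with a median log2 fold change of −2.11. This list too was drawn up with earlier results of these data known. In 11 every LPS library lay below every Control library. Scgb1a1 had 59379.8, 41647, 41376, 24752 and 41159 scaled TPM in LPS libraries 1 to 5, against 546977, 288561, 366619.7 and 343814 in Control libraries 1 to 4 (log2 fold change −3.23 ± 0.31 (SE), adjusted p = 2.7e-06). The secretoglobin Scgb3a2 had 602, 1699, 782, 977 and 463 scaled TPM in LPS libraries 1 to 5, against 10303, 5142, 8742 and 7107 in Control libraries 1 to 4 (log2 fold change −3.21, adjusted p = 0.0022). Scgb3a1 had 758, 228, 337, 356 and 829 scaled TPM in LPS libraries 1 to 5, against 2672, 2561, 4285 and 3663 in Control libraries 1 to 4 (log2 fold change −2.86, adjusted p = 2.2e-04). Cyp2f2, the cytochrome P450 that activates naphthalene in club cells, had 708, 1271, 1082, 686 and 732 scaled TPM in LPS libraries 1 to 5, against 5192, 3147, 4057 and 4316 in Control libraries 1 to 4 (log2 fold change −2.25, adjusted p = 0.0017). For these 4 genes no LPS library came near the lowest Control library. The carbonyl reductase Cbr2 had 1272, 3084, 2102, 2198 and 1414 scaled TPM in LPS libraries 1 to 5, against 15215, 9539.9, 11661 and 11292 in Control libraries 1 to 4 (log2 fold change −2.62, adjusted p = 0.0010). The esterase Pon1 had 8.28, 27.4, 19.95, 28.0 and 6.31 scaled TPM in LPS libraries 1 to 5, against 163, 79.0, 148 and 149 in Control libraries 1 to 4 (adjusted p = 0.0023). The 4 Control libraries differed among themselves, with Control library 1 the highest and library 2 the lowest for Scgb1a1, and none reached the LPS range. The 2 members that did not pass were Cckar, at 41.6 to 92.1 in LPS libraries and 61.3 to 94.8 in Control libraries, and the basal keratin Krt15, which was 51.2, 5.35, 20.1, 2.95 and 1.31 in LPS libraries 1 to 5 and 1.07, 1.03, 2.15 and 4.71 in Control libraries 1 to 4. The median of this list was −2.08, −1.69, −1.93, −2.31 and −1.96 in LPS libraries 1 to 5 relative to Control, including the libraries with few chemokines. It was −1.47 in the TPM as deposited, where 8 fell and 1 rose, and −1.88 with equal library totals of all genes but the 3 main secretoglobins.

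Of 14 ciliated cell markers 7 fell and 0 rose, with a median of −0.82 and no positive fold change among them. Dynlrb2, a light chain of the motor dynein, had 78.0 to 127 scaled TPM in LPS libraries, against 249 to 432 in Control libraries (log2 fold change −1.58, adjusted p = 0.0014). Tppp3, a microtubule-associated protein, had 287, 434, 209.6, 434 and 288 scaled TPM in LPS libraries 1 to 5, against 934, 668, 741 and 703 in Control libraries 1 to 4 (log2 fold change −1.24, adjusted p = 0.013). Foxj1, the master regulator of motile cilia, did not pass. It had 81.0, 90.0, 49.3, 84.6 and 90.2 in LPS libraries 1 to 5 and 114, 66.0, 96.4 and 119 in Control libraries 1 to 4. The motor heavy chain Dnah5 did not pass either. The count was 4 without Control replicate 1, the library with the highest levels of most of these genes, and 1 in the TPM as deposited, where the median was −0.20.

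Of 14 airway mucins and secreted defence proteins 1 rose and 3 fell, against 13.8% and 14.2% of all genes, with a median of −0.30. Wfdc2, a whey acidic protein abundant in airways, had 873, 986, 706, 868 and 971 scaled TPM in LPS libraries 1 to 5, against 2972, 2020.3, 2495 and 2336 in Control libraries 1 to 4 (log2 fold change −1.47 ± 0.20 (SE), adjusted p = 4.6e-05). Bpifa1, an antimicrobial protein of the airway lining, had 325, 163, 104, 175 and 294 scaled TPM in LPS libraries 1 to 5, against 646, 519, 1063 and 1701 in Control libraries 1 to 4. All its LPS libraries lay below all Control libraries, without passing (adjusted p = 0.10). The lysozymes Lyz1 (log2 fold change −1.15, adjusted p = 0.013) and Lyz2 (log2 fold change −0.44, adjusted p = 0.014) fell, but Lyz2 had a positive fold change in the TPM as deposited. The membrane mucin Muc4 rose (log2 fold change 0.65, adjusted p = 0.040), which was not called without each of 8 libraries, all but LPS replicate 3. The protease inhibitor Slpi had 333, 75.2, 269, 41.1 and 295 scaled TPM in LPS libraries 1 to 5, against 33.1, 41.5, 57.6 and 26.8 in Control libraries 1 to 4 (adjusted p = 0.077), with the order of the chemokines.

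Alveolar epithelial markers moved less. Of 13 type II cell markers 2 fell and 1 rose, against 14.2% and 13.8% of all genes. Their median of −0.24 was 0.43 in the TPM as deposited. Sftpc, which encodes surfactant protein C, had 7862, 23345, 15964, 24603 and 10056 scaled TPM in LPS libraries 1 to 5, against 43635, 50301, 45701 and 45277 in Control libraries 1 to 4 (log2 fold change −1.64, adjusted p = 0.038). LPS libraries 1 and 5 were the lowest, and the call was lost without each of 7 libraries. Abca3, which loads surfactant lipid into lamellar bodies, rose, with 99.4, 87.2, 108, 101 and 126 scaled TPM in LPS libraries 1 to 5, against 57.2, 66.2, 63.3 and 61.7 in Control libraries 1 to 4 (log2 fold change 0.73, adjusted p = 0.0037). Sftpd, a surfactant protein that binds microbial sugars, had 2359, 583, 1077, 672 and 2328 scaled TPM in LPS libraries 1 to 5, against 950.2, 949, 939 and 978 in Control libraries 1 to 4 (adjusted p = 0.62). LPS libraries 1, 3 and 5 lay above all Control libraries and libraries 2 and 4 below all of them. Of 13 type I cell markers 2 fell, near the 14.2% of all genes, with a median of −0.05. In the TPM as deposited 6 rose and 0 fell, with a median of 0.61. The number that fell was 1 without any 1 of the Control libraries or LPS replicate 3. Hopx, a transcriptional cofactor, had 598, 555, 427, 638 and 628 scaled TPM in LPS libraries 1 to 5, against 1041, 901, 1049 and 1079 in Control libraries 1 to 4 (log2 fold change −0.85, adjusted p = 0.0025). The other was the tight junction protein Cldn18 (log2 fold change −0.72, adjusted p = 0.035), whose call was lost without each of 7 libraries. Among the junction genes that fell, the fold changes of Cldn3 and Ctnnb1 were positive in the TPM as deposited, and the number that fell was 1 or 2 without library 1, 3 or 4 of the Control group or library 1 or 3 of the LPS group. In all, of 14 junction genes 1 rose and 4 fell, with a median of −0.22 that was 0.41 in the TPM as deposited. Cldn4, a sealing claudin of the alveolar wall, had 13.3, 73.8, 8.54, 110.2 and 22.2 scaled TPM in LPS libraries 1 to 5, against 10.7, 8.31, 9.71 and 8.90 in Control libraries 1 to 4 (adjusted p = 0.13). It was highest in the LPS libraries with few chemokines. Of 11 genes of alveolar fluid clearance 2 rose and 1 fell, against 13.8% and 14.2% of all genes. In this list 8 had a positive fold change and the median was 0.24. In the TPM as deposited 9 rose and 0 fell. The gene that fell was the sodium pump subunit Atp1b1 (log2 fold change −0.52, adjusted p = 0.019), which lost the call without each of 3 libraries. Its fold change was positive in the TPM as deposited. The number that rose was 0 without LPS replicate 5 and 1 without any 1 of the Control libraries or LPS replicate 1.

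In the vessel wall, 4 of 19 endothelial markers rose and 0 fell, against 13.8% and 14.2% of all genes. Their median of 0.02 was 0.68 in the TPM as deposited. Ace, the angiotensin-converting enzyme of lung capillaries, had 584, 293, 403, 406 and 682 scaled TPM in LPS libraries 1 to 5, against 199, 257, 248 and 283 in Control libraries 1 to 4 (log2 fold change 0.89, adjusted p = 0.0066). The adherens junction cadherin Cdh5 (log2 fold change 0.63, adjusted p = 0.0032), the adhesion molecule Pecam1 (log2 fold change 0.61, adjusted p = 0.0083) and the endothelial nitric oxide synthase Nos3 (log2 fold change 0.96, adjusted p = 0.015) were the others, and Nos3 lost its call without Control replicate 1. The fold change was negative for 9 of the 19. Near the shares of all genes, 14.2% and 13.5%, every LPS library lay above every Control library for 3 and below for 3. The last were, as chosen after their values were seen, the adrenomedullin receptor partner Ramp2 (log2 fold change −0.42, adjusted p = 0.13), the endothelin receptor Ednrb (log2 fold change −1.001, adjusted p = 0.13) and the capillary lipase anchor Gpihbp1 (log2 fold change −0.68, adjusted p = 0.11), and none of these passed the test. With sample quality weights 2 endothelial markers fell, and 13 rose in the TPM as deposited. Of 19 fibroblast and matrix genes 6 rose and 3 fell, with a median of −0.04. Elastin, Eln, had 305, 75.7, 86.8, 102 and 314 scaled TPM in LPS libraries 1 to 5, against 28.9, 52.8, 33.3 and 33.8 in Control libraries 1 to 4 (log2 fold change 1.98, adjusted p = 0.0082). Lox, the enzyme that crosslinks elastin and collagen, had 59.8, 23.2, 47.7, 25.1 and 54.0 scaled TPM in LPS libraries 1 to 5, against 10.99, 13.8, 14.8 and 13.1 in Control libraries 1 to 4 (log2 fold change 1.51, adjusted p = 0.010). Fibronectin, Fn1, also rose (log2 fold change 1.20, adjusted p = 0.016). The 3 that fell included Inmt, a methyltransferase abundant in lung (log2 fold change −1.65, adjusted p = 0.041), and Mfap4, a microfibril protein (log2 fold change −0.77, adjusted p = 0.014). Inmt lost its call without each of 7 libraries, and the number that fell was 1 without Control replicate 1 or 2 or LPS replicate 3. Of 12 smooth muscle and pericyte markers 2 fell, near the 14.2% of all genes, with a median of −0.24. In the TPM as deposited 4 rose and 0 fell, with a median of 0.39. Cox4i2, a cytochrome oxidase subunit of lung vessels, had 44.2, 85.2, 53.1, 80.5 and 57.4 scaled TPM in LPS libraries 1 to 5, against 143, 162, 134 and 131 in Control libraries 1 to 4 (log2 fold change −1.18, adjusted p = 0.0026). The other, the light chain Myl9, lost its call without each of 4 libraries, which were Control replicates 1 and 4 and LPS replicates 2 and 3.

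Antioxidant genes driven by NRF2 rose in 10 of 22 cases and fell in 0, with a median of 0.65. Slc7a11, which imports cystine for glutathione, had 8.58, 14.3, 2.42, 14.4 and 9.74 scaled TPM in LPS libraries 1 to 5, against 0.262, 0.211, 0.237 and 0.311 in Control libraries 1 to 4 (log2 fold change 2.94 ± 0.36 (SE), adjusted p = 2.9e-05). Srxn1, which repairs overoxidised peroxiredoxins, had 36.5, 73.7, 28.3, 86.7 and 44.6 scaled TPM in LPS libraries 1 to 5, against 14.1, 14.5, 12.6 and 13.9 in Control libraries 1 to 4 (log2 fold change 1.77 ± 0.34 (SE), adjusted p = 8.2e-04). Gsta1 had 51.5, 117, 8.28, 158 and 55.5 scaled TPM in LPS libraries 1 to 5, against 2.33, 0.995, 2.09 and 3.18 in Control libraries 1 to 4 (log2 fold change 4.18, adjusted p = 2.9e-04). For these 3 genes LPS libraries 2 and 4, the ones with few chemokines, were the highest and LPS library 3 the lowest, yet no LPS library reached the Control range. The pentose phosphate enzymes, which supply NADPH, rose with a narrower spread. G6pdx had 42.5, 42.4, 68.4, 44.9 and 54.6 scaled TPM in LPS libraries 1 to 5, against 18.6, 18.4, 16.6 and 18.3 in Control libraries 1 to 4 (log2 fold change 1.42 ± 0.15 (SE), adjusted p = 6.7e-06). Pgd had 145, 194, 139, 194 and 167 scaled TPM in LPS libraries 1 to 5, against 93.5, 79.1, 75.0 and 88.3 in Control libraries 1 to 4 (log2 fold change 0.98, adjusted p = 6.6e-05). Taldo1 rose as well (log2 fold change 0.83, adjusted p = 3.7e-05). The thioredoxin reductase Txnrd1 (log2 fold change 0.62, adjusted p = 0.0042) and the glutathione reductase Gsr (log2 fold change 1.22, adjusted p = 0.0033) rose too. Hmox1, which breaks down heme, had 129, 63.4, 143, 70.3 and 182 scaled TPM in LPS libraries 1 to 5, against 33.5, 34.0, 29.2 and 31.1 in Control libraries 1 to 4 (log2 fold change 1.73, adjusted p = 0.022). It was lowest in LPS libraries 2 and 4, and it lost its call without each of 3 libraries. Gclc, which makes the first step of glutathione synthesis with Gclm, rose (log2 fold change 0.83, adjusted p = 0.034), not called without each of 8 libraries. Gclm and Nqo1, both much used as readouts of NRF2, did not pass. Gclm was 33.9, 91.9, 27.0, 85.7 and 37.8 in LPS libraries 1 to 5 and 42.4, 39.2, 39.5 and 34.7 in Control libraries 1 to 4, above Control in libraries 2 and 4 and below it in libraries 1 and 3. The count was 8 to 10 without any 1 library, 10 without LPS replicates 2 and 4 and 9 without LPS replicates 1 and 3.

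The promoters of Slc7a11 and Srxn1 are shown because these 2 called genes each carry several matches to the core of the antioxidant response element. Capitals mark TGANNNNGC on either strand in the 250 bases before the start, from RefSeq on GRCm38.p6, at chr3:50443614-50443863 on the minus strand and chr2:152105274-152105523 on the plus strand, with 2 and 3 matches.
Slc7a11: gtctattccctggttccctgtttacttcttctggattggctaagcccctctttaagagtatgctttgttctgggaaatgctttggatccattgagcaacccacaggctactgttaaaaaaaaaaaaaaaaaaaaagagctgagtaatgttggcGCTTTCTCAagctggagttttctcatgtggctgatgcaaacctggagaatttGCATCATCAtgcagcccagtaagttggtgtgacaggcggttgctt
Srxn1: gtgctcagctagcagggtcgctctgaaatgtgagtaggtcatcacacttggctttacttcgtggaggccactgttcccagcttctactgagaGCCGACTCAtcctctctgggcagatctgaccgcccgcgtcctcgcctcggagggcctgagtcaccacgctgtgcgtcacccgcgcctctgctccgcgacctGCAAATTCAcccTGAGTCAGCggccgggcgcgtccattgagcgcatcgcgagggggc
This short core is common. It was present in 36.7% of all windows and in 50% (9 of 18) of the windows of the antioxidant list, in 38.1% of the windows of genes that rose and in 35% of those of genes that fell.

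Xenobiotic enzymes fell in 6 of 17 cases and rose in 1, with a median of −0.63 that was 0.04 in the TPM as deposited. Cyp1a1, the best known target of the aryl hydrocarbon receptor, had 1.63, 3.00, 0.852, 10.4 and 2.35 scaled TPM in LPS libraries 1 to 5, against 57.0, 34.7, 44.9 and 38.8 in Control libraries 1 to 4 (log2 fold change −3.56 ± 0.58 (SE), adjusted p = 2.6e-04). Cyp2a5, which oxidises coumarin and nicotine, had 18.9, 34.4, 20.2, 25.2 and 30.4 scaled TPM in LPS libraries 1 to 5, against 153, 127, 245 and 272 in Control libraries 1 to 4 (log2 fold change −2.87, adjusted p = 0.0030). LPS library 4 kept the most Cyp1a1 and library 3 the least. The carboxylesterase Ces1d had 227, 321, 308, 281 and 233 scaled TPM in LPS libraries 1 to 5, against 975, 691, 813 and 810.3 in Control libraries 1 to 4 (log2 fold change −1.59, adjusted p = 0.0015). The groups were separate for each of these 3 genes. Cyp2f2, described with the club cell markers, and the aldehyde oxidase Aox3 (log2 fold change −1.58, adjusted p = 0.022) also fell, and Aox3 lost its call without Control replicate 1 or LPS replicate 1. The receptor itself, Ahr, overlapped at 11.1 to 21.7 in LPS libraries and 13.7 to 21.4 in Control libraries. The aldehyde dehydrogenase Aldh3a1, another known target of the receptor, rose with 78.5, 72.8, 31.3, 52.0 and 72.7 scaled TPM in LPS libraries 1 to 5, against 28.3, 19.3, 30.5 and 29.1 in Control libraries 1 to 4 (log2 fold change 1.12, adjusted p = 0.013). The core GCGTG of the xenobiotic response element was present in 41.7% (5 of 12) of the windows of this list and in 43.1% of all windows.

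Most clock genes listed as activators rose and most of those listed as repressors and outputs fell. In each LPS library 4 of 6 on the activator list lay above all Control libraries. On the other list 12 to 15 of the 15 lay below all of them, while 0 to 2 of these 15 lay above. Of all genes tested, 32.4% to 38.6% lay above all Control libraries in a single LPS library, and 29.7% to 37.7% lay below. Of 6 genes listed as activators, a list that also holds the repressor Nfil3, 4 rose and 1 fell. Bmal1 had 15.5, 8.01, 20.7, 18.0 and 16.3 scaled TPM in LPS libraries 1 to 5, against 1.36, 1.36, 0.988 and 0.960 in Control libraries 1 to 4 (log2 fold change 2.89 ± 0.35 (SE), adjusted p = 2.6e-05). Npas2, which can stand in for CLOCK as the partner of BMAL1, had 8.34, 3.14, 6.47, 5.59 and 6.37 scaled TPM in LPS libraries 1 to 5, against 0.525, 0.846, 0.988 and 0.857 in Control libraries 1 to 4 (log2 fold change 1.91 ± 0.24 (SE), adjusted p = 3.0e-05). Clock had 11.4, 10.98, 11.6, 13.2 and 11.2 scaled TPM in LPS libraries 1 to 5, against 5.68, 5.93, 5.93 and 5.35 in Control libraries 1 to 4 (log2 fold change 0.91 ± 0.10 (SE), adjusted p = 7.9e-06). The 5 LPS values of Clock lay close together. Nfil3, which represses the genes that DBP activates, had 28.5, 9.60, 21.2, 16.7 and 26.6 scaled TPM in LPS libraries 1 to 5, against 2.24, 2.34, 3.33 and 3.74 in Control libraries 1 to 4 (log2 fold change 2.39 ± 0.50 (SE), adjusted p = 0.0018). In all 4 the lowest LPS library exceeded the highest Control library, although LPS library 2 was the lowest for each of them. Rora, an activator of Bmal1, fell to 5.65, 5.77, 4.60, 6.29 and 5.61 in LPS libraries 1 to 5 against 7.18, 8.06, 9.09 and 7.85 in Control libraries 1 to 4 (log2 fold change −0.46, adjusted p = 0.011), a direction that turned in the TPM as deposited.

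Of 15 clock repressors and output genes 12 fell and 0 rose, with a median of −1.50. Dbp, an output transcription factor with one of the strongest daily rhythms known, had 12.3, 32.6, 8.01, 10.9 and 9.75 scaled TPM in LPS libraries 1 to 5, against 315, 274, 265 and 289 in Control libraries 1 to 4 (log2 fold change −4.37 ± 0.73 (SE), adjusted p = 3.1e-04). Its relatives Hlf and Tef fell as well. Hlf had 3.54, 5.13, 2.50, 4.24 and 1.99 scaled TPM in LPS libraries 1 to 5, against 19.3, 31.8, 22.9 and 21.0 in Control libraries 1 to 4 (log2 fold change −2.49, adjusted p = 5.3e-04). Tef had 66.7, 74.1, 61.1, 48.7 and 76.1 scaled TPM in LPS libraries 1 to 5, against 169, 166, 197 and 208 in Control libraries 1 to 4 (log2 fold change −1.50, adjusted p = 5.2e-04). For all 3 relatives the groups were far apart, and LPS library 2 held the most Dbp and Hlf. The repressors of Bmal1, Nr1d1 and Nr1d2, which encode REV-ERB alpha and beta, fell. Nr1d2 had 13.2, 43.3, 13.4, 23.3 and 12.9 scaled TPM in LPS libraries 1 to 5, against 82.2, 84.5, 94.5 and 85.6 in Control libraries 1 to 4 (log2 fold change −2.14 ± 0.41 (SE), adjusted p = 8.1e-04). Nr1d1 had 19.9, 97.0, 35.6, 61.2 and 21.2 scaled TPM in LPS libraries 1 to 5, against 134, 137, 138 and 144 in Control libraries 1 to 4 (log2 fold change −1.80, adjusted p = 0.044). LPS library 2 kept the highest LPS level of both, and the call of Nr1d1 was lost without each of 7 libraries. The period genes all had negative fold changes, at −0.69 for Per1, and only Per3 and Per2 passed. Per3 had 5.75, 12.1, 6.02, 6.13 and 6.98 scaled TPM in LPS libraries 1 to 5, against 32.9, 31.8, 35.0 and 33.9 in Control libraries 1 to 4 (log2 fold change −2.08 ± 0.38 (SE), adjusted p = 6.3e-04). Per2 had 8.67, 8.998, 7.93, 7.05 and 12.4 scaled TPM in LPS libraries 1 to 5, against 18.4, 20.6, 35.2 and 29.7 in Control libraries 1 to 4 (log2 fold change −1.41 ± 0.25 (SE), adjusted p = 4.1e-04). Per1, which glucocorticoids and other acute signals also induce, overlapped with 42.7, 20.5, 35.3, 40.2 and 46.2 in LPS libraries 1 to 5 and 45.5, 56.7, 65.7 and 68.3 in Control libraries 1 to 4 (adjusted p = 0.23). Of the cryptochromes Cry2 fell (log2 fold change −0.70, adjusted p = 0.020), not called without Control replicate 3, while Cry1 did not pass (8.03 to 18.5 in LPS libraries and 10.5 to 14.1 in Control libraries). Ciart, a repressor of the CLOCK and BMAL1 complex, had 6.42, 12.0, 3.00, 6.203 and 6.29 scaled TPM in LPS libraries 1 to 5, against 31.1, 30.2, 27.3 and 32.9 in Control libraries 1 to 4 (log2 fold change −2.11, adjusted p = 2.7e-04). The kinase gene Wee1 had 5.61, 6.92, 6.02, 6.31 and 6.97 scaled TPM in LPS libraries 1 to 5, against 16.1, 15.3, 15.8 and 17.8 in Control libraries 1 to 4 (log2 fold change −1.23 ± 0.13 (SE), adjusted p = 4.6e-06). Its 5 LPS values lay within a narrow band.

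The promoter of Ciart is shown because it holds 3 E-boxes, the sites to which CLOCK and BMAL1 bind, which is the highest number in the clock lists. Capitals mark CACGTG, which reads the same on both strands, in the 250 bases before the start, from RefSeq on GRCm38.p6 at chr3:95882229-95882478 on the minus strand.
Ciart: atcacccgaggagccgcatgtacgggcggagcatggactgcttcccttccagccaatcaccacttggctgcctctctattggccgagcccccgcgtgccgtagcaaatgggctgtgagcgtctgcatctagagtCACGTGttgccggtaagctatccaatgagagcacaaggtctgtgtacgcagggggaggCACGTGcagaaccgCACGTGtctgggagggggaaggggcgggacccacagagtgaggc
An E-box was present in 41.7% (5 of 12) of the windows of clock repressors and outputs, in none of 5 windows of the activator list, and in 8% of all windows. It was present in 8.11% of the windows of all genes that rose and in 7.29% of those that fell. The D-box TTANGTAA, to which DBP, TEF and HLF bind, was present in 8.33% (1 of 12) of the repressor and output windows, that of Per3, and in 1.44% of all windows. The core TAGGTCA, with at least 3 bases before it, of the element bound by ROR and REV-ERB was present in 20% (1 of 5) of the activator windows, that of Nfil3, and in 1.73% of all windows. It was also present in 21.1% (4 of 19) of the chemokine windows, so it was not particular to the activator list.

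**Figure D5:**
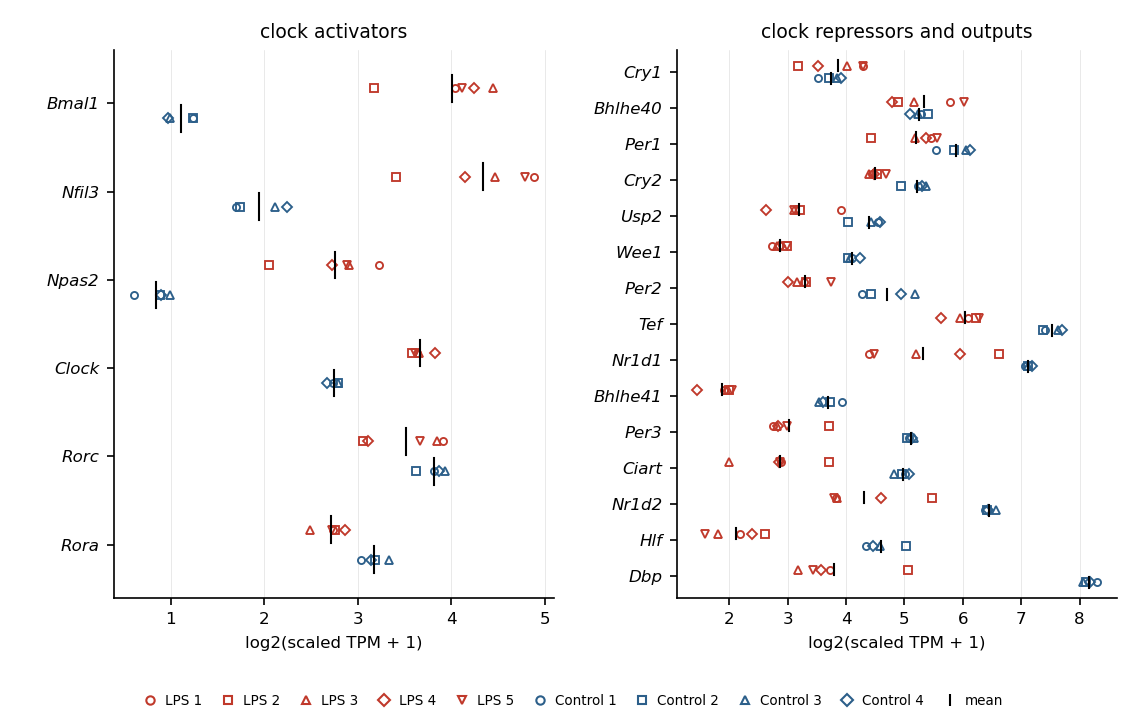
Clock activators (left) and clock repressors and outputs (right) as log2(scaled TPM + 1) in each library, ordered by log2 fold change, with LPS in red above Control in blue and black bars at group means. Bmal1, Nfil3, Npas2 and Clock lie to the right in LPS libraries and the 12 called repressors and outputs from Cry2 to Dbp lie to the left, without overlap between the groups.

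Leaving out any 1 library left 4 of the activator list higher and 1 lower, and 10 to 12 of the repressors and outputs lower. Without LPS replicates 2 and 4 the repressor count was 12, and without LPS replicates 1 and 3 it was 10. In the TPM as deposited 9 fell and 1 rose, with a median of −0.83. Without a time of collection in the labels, the hour of collection and the challenge cannot be told apart.

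Genes that respond to glucocorticoids, hormones with a daily rhythm of their own, rose in 3 of 14 cases and fell in 2. Of all genes 13.8% rose and 14.2% fell, and counts of this size are not read as a result about the list. The cell cycle inhibitor Cdkn1a had 225, 89.3, 205, 164 and 253 scaled TPM in LPS libraries 1 to 5, against 30.1, 30.9, 34.0 and 35.5 in Control libraries 1 to 4 (log2 fold change 2.41 ± 0.43 (SE), adjusted p = 5.2e-04). The pyruvate dehydrogenase kinase Pdk4 had 56.1, 12.8, 80.1, 22.6 and 24.7 scaled TPM in LPS libraries 1 to 5, against 5.45, 6.63, 10.97 and 8.86 in Control libraries 1 to 4 (log2 fold change 1.92, adjusted p = 0.010). The lipase inhibitor Angptl4 rose (log2 fold change 1.86, adjusted p = 0.015), not called without Control replicate 1. Tsc22d3, which encodes the glucocorticoid-induced leucine zipper, fell to 195, 190.4, 179.9, 269.5 and 201 in LPS libraries 1 to 5 against 294, 298.6, 387 and 439 in Control libraries 1 to 4 (log2 fold change −0.77, adjusted p = 0.049). Klf9 fell too (log2 fold change −0.89, adjusted p = 0.025). These calls were lost without each of 8 libraries for Tsc22d3 and 4 for Klf9. Fkbp5, a chaperone of the receptor, did not pass (62.4, 11.7, 68.8, 18.4 and 69.7 scaled TPM in LPS libraries 1 to 5, against 11.8, 9.95, 16.9 and 20.6 in Control libraries 1 to 4), with the order of the chemokines.

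Transcripts of the mitochondrial genome, which encode subunits of the respiratory chain and of ATP synthase, fell in 11 of 13 cases, with a median of −1.08. mt-Nd1, a subunit of complex I, had 3628, 4386, 2561, 3567 and 2216 scaled TPM in LPS libraries 1 to 5, against 6889, 6542, 6533 and 6826 in Control libraries 1 to 4 (log2 fold change −1.08 ± 0.18 (SE), adjusted p = 2.6e-04). mt-Nd3, of the same complex, had 737, 717, 448, 542 and 219 scaled TPM in LPS libraries 1 to 5, against 2968, 2382, 1789 and 1915 in Control libraries 1 to 4 (log2 fold change −2.18 ± 0.40 (SE), adjusted p = 6.7e-04). mt-Co1, a catalytic subunit of cytochrome oxidase, had 8867, 13045, 9496, 9449 and 6384 scaled TPM in LPS libraries 1 to 5, against 18303, 16173, 16257 and 16855 in Control libraries 1 to 4 (log2 fold change −0.87, adjusted p = 0.0012). LPS library 5 was the lowest for all 3 and LPS library 2 was the highest for mt-Nd1 and mt-Co1, and every LPS value lay below Control. mt-Co2 and mt-Co3 did not pass. These counts depend on the scaling. In the TPM as deposited, the share of the mitochondrial genome was 4.03% to 7.69% in LPS libraries and 5.37% to 7.36% in Control libraries, and 3 of the transcripts fell, with a median of −0.41 against 0.55 for all genes. Leaving out any 1 library left 10 to 11 of them lower.

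Markers of cardiac muscle, which in mice extends along the pulmonary veins into the lung, fell in 6 of 11 cases, with a median of −1.45. The atrial light chain Myl7 had 74.6, 55.2, 79.6, 102 and 75.6 scaled TPM in LPS libraries 1 to 5, against 347, 318, 354 and 672 in Control libraries 1 to 4 (log2 fold change −2.39, adjusted p = 0.0033), with Control library 4 at the top. The troponin Tnni3 had 23.5, 22.3, 20.1, 36.4 and 26.0 scaled TPM in LPS libraries 1 to 5, against 97.0, 102, 127 and 220.4 in Control libraries 1 to 4 (log2 fold change −2.32, adjusted p = 0.0047). The count was 3 without Control replicate 4. Skeletal muscle markers gave no call in limma (1 at an unadjusted p under 0.05), and 6 of 12 could be tested, since the others reached 1 TPM in too few libraries. Apart from Acta1, the muscle creatine kinase Ckm showed the same pair of libraries, at 445, 5.85, 283, 6.16 and 3.15 scaled TPM in LPS libraries 1 to 5, against 11.9, 14.2, 19.0 and 25.2 in Control libraries 1 to 4. Of 8 adipose and 7 erythroid markers 0 and 1 rose, and no member fell, with 1 adipose marker lower and 0 higher at an unadjusted p under 0.05. The erythroid gene that rose was the anion exchanger Slc4a1 (log2 fold change 0.76, adjusted p = 0.041), not called without each of 6 libraries.

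Of 19 heat shock and endoplasmic reticulum stress genes 9 rose and 1 fell. Hspa5, the main chaperone of the endoplasmic reticulum, had 487, 459.5, 520.1, 607 and 489 scaled TPM in LPS libraries 1 to 5, against 208, 202, 193 and 206 in Control libraries 1 to 4 (log2 fold change 1.33 ± 0.17 (SE), adjusted p = 3.6e-05). Its partner Sdf2l1 had 57.0, 33.1, 78.1, 50.5 and 66.1 scaled TPM in LPS libraries 1 to 5, against 20.9, 15.2, 12.9 and 17.7 in Control libraries 1 to 4 (log2 fold change 1.68 ± 0.30 (SE), adjusted p = 4.4e-04). Asns, the asparagine synthetase of the amino acid response (log2 fold change 0.87, adjusted p = 4.3e-04), and the disulfide isomerase Pdia4 (log2 fold change 0.87, adjusted p = 5.3e-04) rose. All LPS libraries exceeded all Control libraries for these 4 genes. Herpud1, which takes part in the degradation of proteins from the endoplasmic reticulum, fell (log2 fold change −0.54, adjusted p = 0.014), but had a positive fold change in the TPM as deposited. The inducible heat shock genes Hspa1a and Hspa1b did not pass. Hspa1a had 13.5 to 21.1 scaled TPM in LPS libraries and 7.68 to 34.0 in Control libraries, where it varied more.

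Of 19 hypoxia and glycolysis genes 5 rose and 1 fell. Gapdh, a glycolytic enzyme often used as a reference, had 1165, 927, 1362, 885 and 1185 scaled TPM in LPS libraries 1 to 5, against 555, 454, 459.6 and 494 in Control libraries 1 to 4 (log2 fold change 1.16 ± 0.24 (SE), adjusted p = 0.0015). Aldoa had 1295, 521, 1111, 549 and 774 scaled TPM in LPS libraries 1 to 5, against 476, 447, 460.0 and 576 in Control libraries 1 to 4 (log2 fold change 0.71, adjusted p = 0.023). It was highest in LPS libraries 1 and 3, which carried skeletal muscle transcripts, and the part of muscle in it was not tested. Eno1 rose as well (log2 fold change 1.09, adjusted p = 0.033) and was high in LPS libraries 1, 3 and 5. The number that rose was 1 without LPS replicates 1 and 3. It was 1 to 3 in the fits that left out 1 of Control libraries 1 to 3 or of LPS libraries 1, 3 and 5. Of 21 immediate early genes 1 rose. Myc, a driver of growth, had 25.9, 14.8, 27.6, 18.5 and 27.7 scaled TPM in LPS libraries 1 to 5, against 4.95, 6.59, 5.10 and 5.49 in Control libraries 1 to 4 (log2 fold change 1.84 ± 0.27 (SE), adjusted p = 9.9e-05). The count was 2 without Control replicate 3, LPS replicate 4 or LPS replicate 5. Of 23 cell cycle genes 6 rose, mostly subunits of the replicative helicase. Mcm5 had 15.0, 9.36, 24.6, 10.8 and 17.3 scaled TPM in LPS libraries 1 to 5, against 4.81, 5.73, 4.95 and 4.89 in Control libraries 1 to 4 (log2 fold change 1.36 ± 0.28 (SE), adjusted p = 0.0014), and Mcm7 also rose (log2 fold change 0.59, adjusted p = 3.2e-04). The proliferation marker Mki67 also rose (log2 fold change 0.98, adjusted p = 0.043). LPS library 3 had 12.8 scaled TPM and the rest of the LPS group 3.25 to 3.55. The call was lost without each of 4 libraries.

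Among 11 genes of metal handling 2 rose and 3 fell, against 13.8% and 14.2% of all genes. The zinc and iron importer Slc39a14 had 40.7, 9.89, 48.1, 12.5 and 40.3 scaled TPM in LPS libraries 1 to 5, against 4.15, 4.60, 4.83 and 4.14 in Control libraries 1 to 4 (log2 fold change 2.28, adjusted p = 0.018). The iron exporter Slc40a1, whose protein is the target of hepcidin, rose (log2 fold change 0.74, adjusted p = 0.022). Its groups overlapped, and it lost its call without each of 4 libraries. Hamp fell as given among the largest decreases, and a link between these changes was not tested. Transferrin, Trf, fell too (log2 fold change −0.69, adjusted p = 0.0039). Without Control replicate 1 or 4 or LPS replicate 3 the number that rose was 1. Of 12 genes of coagulation and fibrinolysis 3 rose, the plasminogen activators Plat (log2 fold change 1.64, adjusted p = 0.025) and Plau (log2 fold change 0.87, adjusted p = 0.0081) and the plasminogen-binding annexin Anxa2 (log2 fold change 0.44, adjusted p = 0.032). The number that rose was 1 without Control replicate 2, LPS replicate 3 or LPS replicate 5. Of 14 enzymes of oxidant and lipid mediator synthesis none passed in limma, while 4 had an unadjusted p under 0.05. Acod1, which makes the antimicrobial itaconate in macrophages, had 41.0, 0.871, 46.1, 0.261 and 40.7 scaled TPM in LPS libraries 1 to 5, against 0.0309, 0.0870, 0.105 and 0.0779 in Control libraries 1 to 4 (adjusted p = 0.18). Without LPS replicate 4, 3 of these enzymes rose. Of 15 cholesterol synthesis genes 2 rose, near the 13.8% of all genes. The regulator Srebf2 was 1 of them (log2 fold change 0.40, adjusted p = 0.013). The number that rose was 1 without Control replicate 2, 3 or 4 or LPS replicate 1 or 5.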

How the data were processed

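RNA was taken from whole mouse lung, ribosomal RNA was removed, and libraries were sequenced as paired reads of 150 bases, per the labels' protocols. The authors deposited 1 table of TPM (transcript abundance normalized for gene length and library total) for 78298 genes and 24 libraries, 21883 of them without a symbol. The submitters' processing notes name HISAT2, StringTie, RSEM, DESeq2 and the build GRCm39, with neither roles nor versions. No read counts were used here, so depth is unknown and no counting interval can be given.

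Genes with at least 1 TPM in at least 4 libraries were kept (17823). TPM were divided by median-of-ratios factors over the 16472 kept genes above 0 in every library, and log2(scaled TPM + 1) was fitted with limma 3.58.1 in R 4.3.3, with 1 mean per group over all 24 libraries, an intensity trend and robust variances. Tests were two-sided, with Benjamini-Hochberg adjustment over all genes and a call at an adjusted p of 0.05 or less. No library pair was identical. Same-numbered libraries did not deviate together, so replicate numbers were not taken as pairs. Named were the 12 largest increases and 12 largest decreases among calls with a mean of at least 5 scaled TPM in the higher group and no overlap (predicted genes, pseudogenes and receptor segments skipped), and in each list the 4 largest called changes, or the 2 most abundant members where none was called. The members and gene lists, and further genes named for their role, were chosen with earlier results of these data known. Some genes that the rule or the lists hold are not reported here. Promoter windows came from RefSeq on GRCm38.p6, another build than that of the files, and matched by gene symbol or ID for 11826 tested genes. Alternatives changed the scaling, filter, pseudocount, weights, samples in the fit, replicate block and the libraries left out.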

Additional observations from a re-analysis of the deposited data

Results flagged for a closer look

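Of 488 groups of libraries examined for the genes named, 34 held 1 library that stood apart from the rest by Dixon's test at the 95% level, and chance flags about 1 group in 20. Values are scaled TPM, and the others are the other libraries of the same group. LPS library 3 was the one apart for 9 genes, other LPS libraries for 7, and Control libraries for 18. The pattern of LPS library 3 joined high values of the cell cycle genes Cdk1 and Mki67 and of the fat gene Adipoq with low values of several epithelial and antioxidant genes, and its cause was not tested.

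Adipoq had 57.4 in LPS library 3, above 2.34 to 5.98 in the others, and Atp1b1 had 204 in LPS library 3, below 255 to 271 in the others. Foxj1 had 49.3 in LPS library 3, below 81.0 to 90.2 in the others, and Cxcl17 had 118 in LPS library 3, below 180.2 to 211 in the others. Muc4 had 13.2 in LPS library 3, below 28.4 to 34.2 in the others, and Gclc had 46.7 in LPS library 3, below 136 to 196 in the others. Pdia4 had 154 in LPS library 3, above 94.9 to 108 in the others, and Cdk1 had 33.5 in LPS library 3, above 9.58 to 13.1 in the others. Mki67 had 12.8 in LPS library 3, above 3.25 to 3.55 in the others.

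Commd1b had 6.63 in LPS library 2 and was listed at 0 in the others. Per3 had 12.1 in LPS library 2, above 5.75 to 6.98 in the others, and Bhlhe41 had 1.73 in LPS library 4, below 2.76 to 3.15 in the others. Tsc22d3 had 269.5 in LPS library 4, above 179.9 to 201 in the others, and Muc5b had 11.2 in LPS library 5, above 6.81 to 7.76 in the others. Clock had 13.2 in LPS library 4, above 10.98 to 11.6 in the others, and Ncr1 had 8.75 in LPS library 2, above 4.36 to 5.08 in the others.

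Among Control libraries, Pon1 had 79.0 in Control library 2, below 148 to 163 in the others, and Myl7 had 672 in Control library 4, above 318 to 354 in the others. mt-Nd6 had 2435 in Control library 1, below 3845 to 3917 in the others, and Cfap43 had 18.1 in Control library 2, below 27.0 to 28.0 in the others. Mfap4 had 382 in Control library 1, below 485 to 488 in the others, and Cckar had 94.8 in Control library 1, above 61.3 to 64.8 in the others. Siglecf had 1.86 in Control library 4, below 2.96 to 3.07 in the others, and Ly96 had 9.44 in Control library 1, below 10.8 to 11.1 in the others. Gsdmd had 33.2 in Control library 1, below 43.3 to 44.4 in the others. Sod2 had 100.4 in Control library 2, below 129.9 to 137 in the others, and Aldh3a1 had 19.3 in Control library 2, below 28.3 to 30.5 in the others. Tirap had 4.05 in Control library 4, below 4.46 to 4.54 in the others, and Mcm5 had 5.73 in Control library 2, above 4.81 to 4.95 in the others. G6pdx had 16.6 in Control library 3, below 18.3 to 18.6 in the others, and Bcl3 had 11.1 in Control library 4, above 9.51 to 9.73 in the others. Cxcl1 had 1.49 in Control library 3, below 1.87 to 1.90 in the others, and Ccl20 had 0.277 in Control library 3, below 1.02 to 1.21 in the others. Saa3 had 5.40 in Control library 4, below 13.1 to 15.1 in the others.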

How the results depend on the processing

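The numbers of genes higher and lower in LPS lungs, 2455 and 2523, depended most on the scaling. They were 10013 and 331 in the TPM as deposited, and 2785 calls were shared in sign with the main ones while 250 had the opposite sign. They were 5366 and 1064 after rescaling without the club cell secretoglobins, 4053 and 3925 with sample quality weights, and 401 and 554 when a log2 fold change of at least 1 in size was also asked for. Leaving out 1 library gave 1691 to 2834 higher and 1676 to 2901 lower genes, with both minima without Control replicate 1 and both maxima without LPS replicate 2. Fits chosen after seeing the data gave 3181 and 3065 without LPS replicates 2 and 4, and 1343 and 1471 without LPS replicates 1 and 3. Upper-quartile scaling (2066 and 2961), no filter (1725 and 2159), the 9 libraries alone (2786 and 2811), a pseudocount of 0.1 (2532 and 2369) and other filters moved both counts by less than 1.5 times. With the replicate number as a block the counts were 2295 and 2323. Same-numbered libraries correlated by 0.0651, −0.0159, −0.044 and 0.0223 in their deviations, so the numbers give no pairing.

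Of 244 named genes 163 were called in the main fit. Of these called genes 6 changed sign in another fit, all in the TPM as deposited. Their log2 fold changes there were 0.0605 for Cldn3, 0.13 for Herpud1, 0.14 for Atp1b1, 0.12 for Rora, 0.23 for Lyz2 and 0.28 for Ctnnb1. Sign changes of named genes that were not called were not counted. Of the 163 called, 106 kept the call without any 1 of the 9 libraries, and 71 lost it without LPS replicates 1 and 3. The cause was not tested. Depth is unknown, so what it limits cannot be given.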
